A study of Mus musculus with 12 samples.

Results

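Ribosome biogenesis was examined through 54 genes for RNA polymerase I and its factors, for the small nucleolar ribonucleoproteins (snoRNPs) and for assembly of the ribosomal subunits, found by symbol among the 56748 genes of the count table. They comprise 8 genes of RNA polymerase I transcription, 3 of the box C/D snoRNP, 5 of the box H/ACA snoRNP, 4 abundant nucleolar proteins, 21 factors of the small subunit and 13 of the large subunit. All 54 passed the filter on low counts, which kept 12547 genes. The lowest read count of any of them in any library was 937, for Polr1e.

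G1E-ER4 is a murine proerythroblast line that lacks its own GATA1, and erythroid differentiation is started in it with estradiol, which activates a fusion of GATA1 and the estrogen receptor. Poly(A) RNA was sequenced from 3 libraries of Sf3b1 K700E/+ cells, which carry the K700E change of the splicing factor SF3B1 on 1 allele, and from 3 libraries of isogenic Sf3b1 +/+ cells, all collected after 24 h of estradiol. Both clones were derived by CRISPR-Cas9 editing, both carry the GATA1 fusion under puromycin selection, and each genotype is 1 clone, so genotype and clone cannot be told apart. Whether the 3 libraries of a genotype came from separate cultures is not labelled, so the p-values cover only the spread among libraries, which may be technical. Counts per gene do not show the K700E allele, so they do not check the genotype labels.

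RNA polymerase I transcribes the large ribosomal RNA precursor in the nucleolus. Box C/D and box H/ACA snoRNPs then modify it, by methylation and by pseudouridylation, and the processome and later factors cut, fold and export the subunits. Erythroid precursors build many ribosomes while they proliferate and reduce this as they mature.

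The libraries held 44045337 to 50077827 counts in Sf3b1 K700E/+ and 38785471 to 40702174 counts in Sf3b1 +/+ cells. Replicate 1 stood apart in both genotypes. The adult globin gene Hbb-bs was at 2651, 4730 and 5861 CPM (the normalised read count, scaled to a common library size by TMM) in Sf3b1 K700E/+ replicates 1, 2 and 3, and at 4824, 7289 and 7642 CPM in the Sf3b1 +/+ replicates, so replicate 1 was the lowest of each. The 14 erythroid markers found were read in every library, with summed levels of 9685 to 15590 CPM in Sf3b1 K700E/+ and 11620 to 16010 CPM in Sf3b1 +/+ cells. The 16 granulocyte and macrophage markers summed to 1.36 to 1.85 CPM in Sf3b1 K700E/+ and 13.5 to 40.2 CPM in Sf3b1 +/+ libraries, with 9 to 11 of them at 0 in the former, 6 to 9 in the latter, and Elane at 0 in all. The 9 mast cell, basophil and eosinophil markers summed to 1.84 to 5.49 and 11.3 to 37.0 CPM, with 4 or 5 and 2 to 4 of them at 0, the 7 megakaryocyte markers to 8.70 to 18.3 and 16 to 27.6 CPM, with 3 or 4 and 3 at 0, and the 8 lymphoid markers to 0.140 to 0.299 and 3.20 to 3.84 CPM, with 5 or 6 and 4 at 0. The part of these differences in the results below was not tested.

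At 24 h of estradiol, ribosome biogenesis genes were mostly higher in Sf3b1 K700E/+ cells, by modest folds. Of the 54, 37 rose and 2 fell (edgeR quasi-likelihood F test, adjusted p under 0.05), against a background of 21.3% of all genes tested that were higher and 23.1% that were lower. The median log2 fold change was 0.34, against -0.01 over all genes tested. None was a DEG, which needs an absolute log2 fold change over 1 and which 10.3% of all genes were. The rises ran from 1.17-fold for Ebna1bp2 to 1.77-fold for Grwd1. In bulk RNA, more cells that express a gene and more RNA per cell cannot be told apart.

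The separation was visible in single libraries. For 38 of the 54 genes every Sf3b1 K700E/+ library lay above every Sf3b1 +/+ library (26.4% of all genes tested did so), for 3 every one lay below (27.9% of all genes), and 13 overlapped. Compared replicate by replicate, 49 of the 54 were higher in Sf3b1 K700E/+ cells in all 3 pairs, as were 4560 of all 12547 genes tested. Together the 54 genes took 1.54%, 1.44% and 1.41% of the counts in the Sf3b1 K700E/+ libraries and 1.36%, 1.17% and 1.14% in the Sf3b1 +/+ libraries. Replicate 1 was the highest Sf3b1 +/+ library for 51 of the 54 genes and the highest Sf3b1 K700E/+ library for 44. The Sf3b1 +/+ replicate with the least Hbb-bs therefore had the most ribosome biogenesis RNA.

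Without replicate 1 of both genotypes, 45 of the 54 rose and 3 fell, with a median log2 fold change of 0.39. Of all genes tested, 25.3% were then higher and 26.9% lower. With single libraries left out, the number of the 54 that rose was lowest, 29, without Sf3b1 +/+ replicate 3. It was highest, 44, without Sf3b1 +/+ replicate 1. Of all genes tested, 16.8% were higher in the former setting and 24% in the latter. Of the 54, 30 rose without Sf3b1 K700E/+ replicate 1 or Sf3b1 +/+ replicate 2, 32 without Sf3b1 K700E/+ replicate 3 and 36 without Sf3b1 K700E/+ replicate 2. In that order, 18.3%, 17.4%, 18.1% and 17.2% of all genes tested were higher. With total counts as the only scaling, 32 of the 54 rose and 3 fell, against 18.1% and 26% of all genes tested. In that setting the calls of Polr1b, Mybbp1a, Nol6, Wdr75 and Nop2 were lost (adjusted p from 0.055 to 0.078 by edgeR) and Brix1 was called lower (0.036). In all 17 settings examined, 29 genes were called higher and 1, Polr1d, was called lower.

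**Figure D1:**
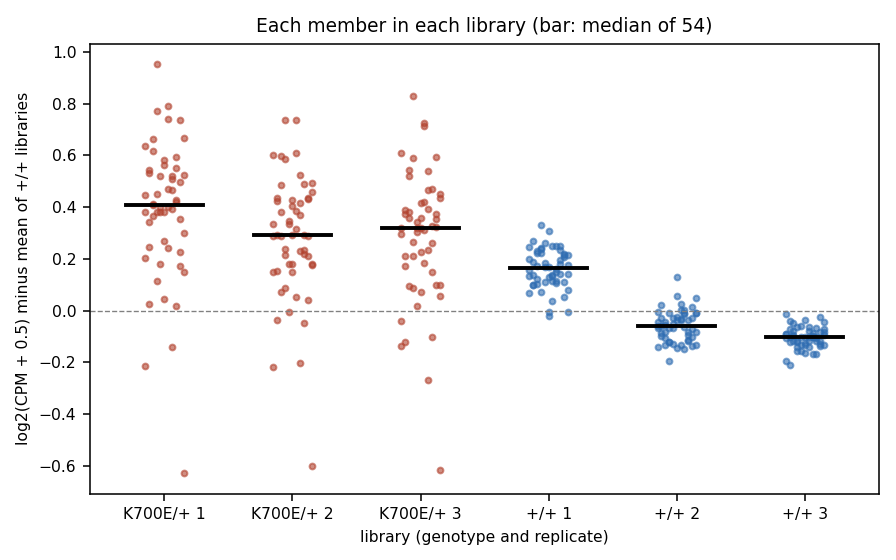
Level of each of the 54 genes in each of the 6 libraries, as log2(CPM + 0.5) minus the mean of the 3 Sf3b1 +/+ libraries; points are genes and the bars are medians over genes. The medians are 0.41, 0.29 and 0.32 in the Sf3b1 K700E/+ libraries and 0.16, -0.06 and -0.10 in the Sf3b1 +/+ libraries, whose points centre on 0 by construction.

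The RNA polymerase I group moved in both directions, with 4 genes higher, 1 lower and 3 not called. Polr1a, the largest catalytic subunit, was at 197, 179.7 and 193 CPM in Sf3b1 K700E/+ replicates 1, 2 and 3 and at 127, 115 and 111 CPM in the Sf3b1 +/+ replicates. It rose 1.61-fold (log2 fold change 0.69 ± 0.07 SE, adjusted p = 6.7e-05 by edgeR) with no overlap of the genotypes. Polr1d, a small subunit that RNA polymerase I shares with RNA polymerase III, went the other way, from 184, 191 and 179 CPM in Sf3b1 +/+ to 119, 122 and 120.4 CPM in Sf3b1 K700E/+ libraries. Its fold was 0.652 (log2 fold change -0.62 ± 0.05 SE, adjusted p = 3.3e-05 by edgeR), the lowest adjusted p of the 54 genes. Its Sf3b1 K700E/+ values were close to each other, with an SD of 1.21 CPM, and all lay below the Sf3b1 +/+ values.

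The rises of the other called genes were smaller. Ubtf, the architectural factor that binds ribosomal DNA, rose 1.27-fold, Polr1b, the second-largest subunit, 1.32-fold, and Polr1c, also shared with RNA polymerase III, 1.19-fold. For Polr1b the genotypes overlapped, and its call was lost without Sf3b1 K700E/+ replicate 1 (adjusted p = 0.10 by edgeR), Sf3b1 K700E/+ replicate 3 (0.060), Sf3b1 +/+ replicate 2 (0.10) or Sf3b1 +/+ replicate 3 (0.12). That of Polr1c was lost without Sf3b1 K700E/+ replicate 3 (0.053) or Sf3b1 +/+ replicate 3 (0.053). The initiation factor Rrn3 (log2 fold change 0.19 ± 0.07) and the nucleolar scaffold Tcof1 (0.26 ± 0.11) were not called, but both were with the replicate number as a block (adjusted p = 0.0058 and 0.00076 by edgeR) or with no filter on low counts (0.043 and 0.033), and Rrn3 also with RLE scaling (0.049) and by DESeq2 (0.046). Polr1e, a subunit of the polymerase and the member with the fewest reads, was at 27.3, 23.96 and 24.4 CPM in Sf3b1 K700E/+ and 25.98, 23.2 and 23.0 CPM in Sf3b1 +/+ libraries. Its values overlapped (log2 fold change 0.07 ± 0.09 SE, adjusted p = 0.56 by edgeR).

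All 3 core proteins of the box C/D snoRNP rose. Fbl, the methyltransferase of the particle, was at 288, 278 and 275 CPM in Sf3b1 K700E/+ and at 183, 167 and 151 CPM in Sf3b1 +/+ libraries. That is a 1.68-fold rise (log2 fold change 0.75 ± 0.07 SE, adjusted p = 6.6e-05 by edgeR), and the lowest Sf3b1 K700E/+ library was far above the highest Sf3b1 +/+ library. Nop56, a scaffold protein of the particle, was at 443, 437 and 415 CPM against 315, 280.1 and 273 CPM, a 1.49-fold rise (0.58 ± 0.07, adjusted p = 0.00017). Its partner Nop58 was at 736, 705 and 653 CPM against 608, 486 and 481 CPM, a 1.33-fold rise (0.41 ± 0.10, adjusted p = 0.0077). Neither gene overlapped between the genotypes, and Sf3b1 +/+ replicate 1 lay closest to the Sf3b1 K700E/+ values in both.

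In the box H/ACA snoRNP, 4 of 5 genes rose. Dkc1, the pseudouridine synthase, was at 249, 231 and 224 CPM in Sf3b1 K700E/+ and 195, 161 and 159 CPM in Sf3b1 +/+ libraries, a 1.37-fold rise (log2 fold change 0.45 ± 0.09 SE, adjusted p = 0.0026 by edgeR). Nop10, a small structural protein, was at 135, 137 and 129 CPM against 113, 101 and 96.1 CPM, a 1.29-fold rise (0.37 ± 0.07, adjusted p = 0.0026). Both were without overlap. Nolc1, the nucleolar chaperone of these particles, rose 1.42-fold and the core protein Nhp2 1.28-fold. The fourth core protein, Gar1, was at 67.0, 64.7 and 56.6 CPM against 67.0, 58.0 and 50.7 CPM, with a log2 fold change of 0.10 ± 0.11 SE (adjusted p = 0.48 by edgeR), so the genotypes overlapped for this subunit.

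Of the abundant nucleolar proteins, Ncl, Gnl3 and Mybbp1a rose and Npm1 did not pass the test. Ncl, which encodes nucleolin and had the most reads of the 54, was at 3048, 2950.4 and 2917 CPM in Sf3b1 K700E/+ and 2611, 2233 and 2199 CPM in Sf3b1 +/+ libraries (1.27-fold, log2 fold change 0.34 ± 0.08 SE, adjusted p = 0.0076 by edgeR). Gnl3, the GTP-binding protein nucleostemin, was at 345, 322 and 327 CPM against 296, 225 and 232 CPM (1.32-fold, 0.40 ± 0.10, adjusted p = 0.011). Npm1, which encodes nucleophosmin and had the second-most reads, was at 2273, 2318 and 2135 CPM against 2165, 2037 and 1953 CPM (0.13 ± 0.07, adjusted p = 0.16). Its lowest Sf3b1 K700E/+ library lay below the highest Sf3b1 +/+ library, and without replicate 1 of both genotypes its adjusted p was 0.045. The 1.22-fold rise of Mybbp1a was lost as a call without any single library other than Sf3b1 +/+ replicate 1 (adjusted p from 0.063 to 0.13 by edgeR).

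**Figure D2:**
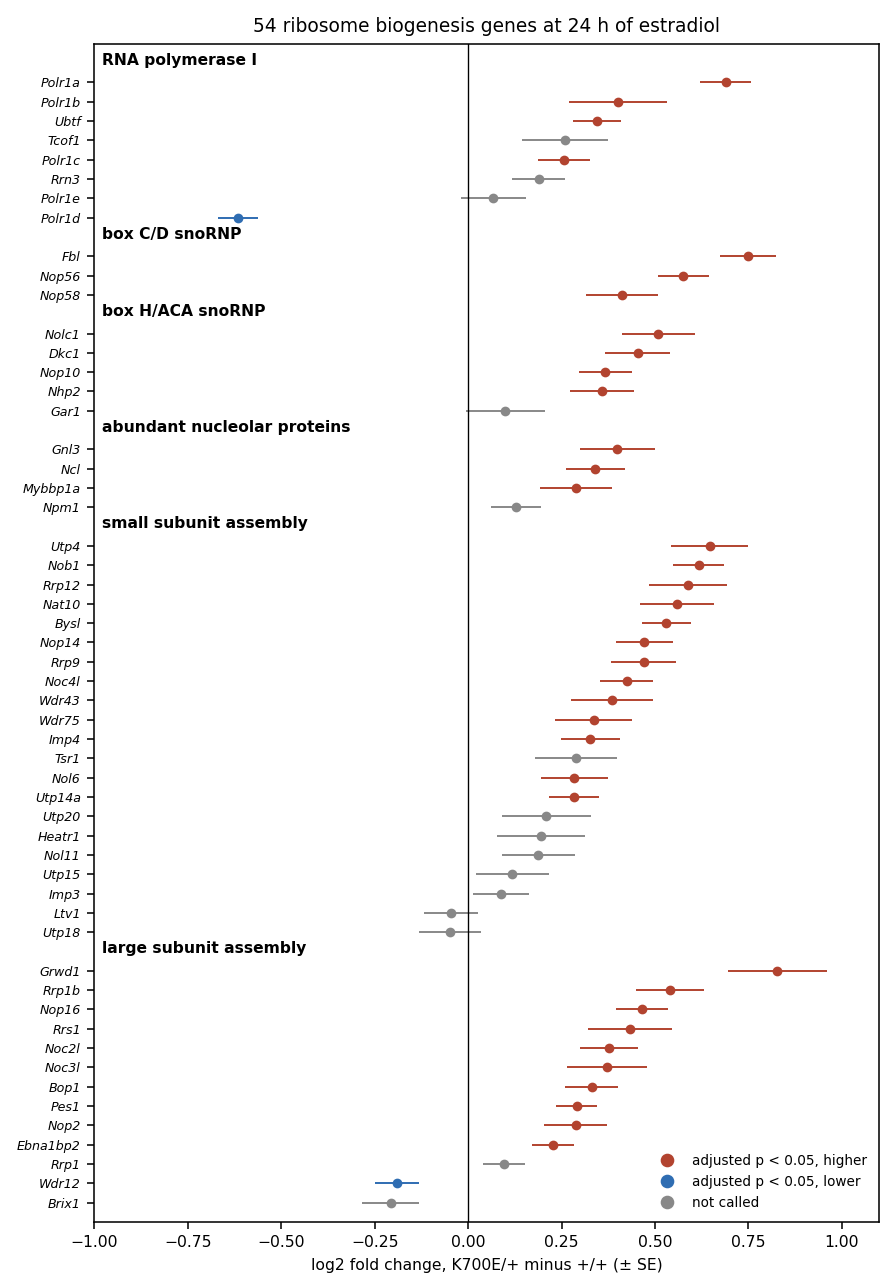
Log2 fold change of each of the 54 genes, Sf3b1 K700E/+ minus Sf3b1 +/+, by role; points are edgeR estimates and bars are ± SE, with n = 3 libraries per genotype (red called higher, blue called lower, grey not called). Values run from -0.62 for Polr1d to 0.83 for Grwd1, with 49 to the right of 0.

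Small subunit factors rose in 13 of 21 cases by edgeR. The number that fell was 0, also by DESeq2 and at an unadjusted p under 0.05. Nob1, the endonuclease that makes the end of 18S rRNA, was at 110.02, 108 and 108 CPM in Sf3b1 K700E/+ and 77.5, 68.6 and 66.4 CPM in Sf3b1 +/+ libraries, a 1.53-fold rise (log2 fold change 0.62 ± 0.07 SE, adjusted p = 0.00013 by edgeR). Bysl, a late assembly factor, was at 102, 103 and 104 CPM against 76.8, 70.7 and 66.4 CPM, a 1.44-fold rise (0.53 ± 0.07, adjusted p = 0.00022). The Sf3b1 K700E/+ values of both genes were tight, with an SD of 1.27 CPM for Nob1 and 0.744 CPM for Bysl. Other rises in this group were those of Utp4 (1.56-fold), the late factor Rrp12 (1.503-fold) and the RNA acetyltransferase Nat10 (1.47-fold), of Nop14 (1.39-fold) and its partner Noc4l (1.34-fold), and of the U3 snoRNP protein Rrp9 (1.38-fold).

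Within the complex of early factors that links transcription of the rRNA to its processing, members did not all pass the test. Utp4, Wdr43 (1.31-fold) and Wdr75 (1.26-fold) rose, whereas Heatr1, Nol11 and Utp15 had log2 fold changes of 0.20 ± 0.12, 0.19 ± 0.10 and 0.12 ± 0.10 SE. Imp4 rose 1.25-fold, while its partner Imp3, in the same U3 complex, had a log2 fold change of 0.09 ± 0.08 SE. Utp14a (1.22-fold) and Nol6 (1.22-fold) rose. Tsr1 (0.29 ± 0.11) and Utp20 (0.21 ± 0.12) were not called, and Ltv1 and Utp18 were near 0 (-0.05 ± 0.07 and -0.05 ± 0.08). With the replicate number as a block, Heatr1, Nol11, Utp20 and Tsr1 also rose (adjusted p = 0.0031, 0.011, 0.0032 and 0.00032 by edgeR), and Tsr1 was called higher by DESeq2 (0.030) and with no filter on low counts (0.015). The calls of Wdr43, Wdr75 and Nol6 were lost without Sf3b1 K700E/+ replicate 1, Sf3b1 +/+ replicate 2 or Sf3b1 +/+ replicate 3 (adjusted p from 0.059 to 0.099), and that of Wdr75 also without Sf3b1 K700E/+ replicate 3 (0.0503).

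Large subunit factors rose in 10 of 13 cases, and 1 fell. Grwd1, whose yeast relative is a chaperone of a large subunit protein and which had the largest rise of the 54, was at 102, 87.5 and 93.4 CPM in Sf3b1 K700E/+ and 66.0, 45.7 and 47.5 CPM in Sf3b1 +/+ libraries (1.77-fold, log2 fold change 0.83 ± 0.13 SE, adjusted p = 0.00095 by edgeR). Nop16 was at 83.0, 77.8 and 80.6 CPM against 63.0, 57.7 and 54.3 CPM (1.38-fold, 0.46 ± 0.07, adjusted p = 0.00066). No library of one genotype entered the range of the other for these genes. Noc3l, with the second-fewest reads, was at 71.5, 59.7 and 58.4 CPM against 55.7, 45.6 and 45.3 CPM (1.29-fold, 0.37 ± 0.11, adjusted p = 0.019), and its call was lost without Sf3b1 K700E/+ replicate 1 (0.058), Sf3b1 +/+ replicate 2 (0.061) or Sf3b1 +/+ replicate 3 (0.074). Its partner Noc2l rose 1.30-fold.

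The 3 genes of the PeBoW complex, which acts in processing of the large subunit rRNA, divided. Pes1 rose 1.22-fold and Bop1 1.26-fold. Wdr12, the third subunit, was at 166, 166 and 175 CPM in Sf3b1 K700E/+ and 202, 185 and 191 CPM in Sf3b1 +/+ libraries, a fold of 0.876 (log2 fold change -0.19 ± 0.06 SE, adjusted p = 0.025 by edgeR). The ranges did not overlap, but the call was lost without Sf3b1 K700E/+ replicate 1 (adjusted p = 0.078), Sf3b1 K700E/+ replicate 2 (0.11), Sf3b1 +/+ replicate 2 (0.051) or Sf3b1 +/+ replicate 3 (0.061), and with no filter on low counts (0.064). Brix1, a factor of early large subunit particles, had all Sf3b1 K700E/+ libraries below the Sf3b1 +/+ libraries (-0.21 ± 0.08, adjusted p = 0.053) and was called lower with the replicate number as a block (adjusted p = 0.0045), with upper quartile scaling (0.047) and with total counts only. The other rises in this group were Rrp1b (1.45-fold), Rrs1 (1.35-fold), the RNA methyltransferase Nop2 (1.22-fold) and Ebna1bp2 (1.17-fold), and Rrp1 did not pass the test (0.10 ± 0.06). Nop2 lost its call without Sf3b1 K700E/+ replicate 1 or 3 or Sf3b1 +/+ replicate 2 or 3 (adjusted p from 0.062 to 0.086 by edgeR).

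Other genes of the pathway moved in both directions. Of 130 tested genes of RNA polymerase I, subunit assembly, nucleolar helicases, snoRNP assembly and the RNA exosome, 54 were higher (41.5%) and 12 lower (9.23%). Their median log2 fold change was 0.14. Over all genes tested, 21.3% were higher and 23.1% lower. With total counts as the only scaling 39 and 16 of the 130 were higher and lower, against 18.1% and 26% of all genes tested. Without Sf3b1 +/+ replicate 3 the numbers were 31 and 7, against 16.8% and 17.6% of all genes tested. Of the 130, 7 were lower also without Sf3b1 K700E/+ replicate 3 or Sf3b1 +/+ replicate 2. No test compared this list with the 54 genes. Large subunit factors had 22 higher (51.2%) and 2 lower (4.65%) of 43, and snoRNP assembly 6 higher (60%) and 0 lower of 10. Small subunit factors had 13 (38.2%) and 4 (11.8%) of 34, and helicases 6 (37.5%) and 1 (6.25%) of 16. The exosome had 3 (21.4%) and 1 (7.14%) of 14, so its share of higher genes was near that of all genes tested. The remaining RNA polymerase I genes had 4 and 4 of 13, or 30.8% in each direction.

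The genes with the lowest adjusted p of these lists included both directions. In the polymerase, Cd3eap, a further RNA polymerase I subunit, rose (log2 fold change 0.82 ± 0.08 SE), as did Polr2l (0.61 ± 0.08), a subunit common to the nuclear polymerases, while Polr2e, also common to them, fell (-0.38 ± 0.06). Among small subunit factors Mphosph10, the scaffold of the Imp3 and Imp4 complex, rose (0.62 ± 0.06), the kinase Riok1 fell (-0.59 ± 0.06) and the methyltransferase Dimt1 rose (0.51 ± 0.09). Among large subunit factors Spout1 fell (-0.97 ± 0.06), and Rrp8 (0.83 ± 0.08) and the GTPase Efl1 (0.70 ± 0.06) rose. Ruvbl2, an ATPase that helps assemble box C/D snoRNPs, rose (0.88 ± 0.06), with its cochaperones Rpap3 (0.37 ± 0.08) and Pih1d1 (0.30 ± 0.06). The exosome subunit Exosc5 fell (-0.54 ± 0.06), whereas Exosc1 (0.49 ± 0.09) and Exosc2 (0.38 ± 0.07) rose, and the helicases Ddx51 (0.53 ± 0.07), Ddx18 (0.33 ± 0.07) and Ddx24 (0.20 ± 0.05) rose.

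In 4 gene groups next to the pathway the median log2 fold change lay between -0.06 and 0.16, against -0.01 over all genes tested. Of all genes tested, 21.3% were higher and 23.1% lower. Of 84 cytosolic ribosomal protein genes, a group formed by symbol after the other values were seen, 16 were higher and 3 lower (median 0.03). RNA polymerase III had 4 subunits higher and 1 lower of 11, with Polr3e, a DEG, at 1.21 ± 0.10. Of 14 noncoding snoRNA host genes, Snhg14 was the 1 that rose (1.64 ± 0.13, a DEG), and 4 fell, with Snhg3 (-0.89 ± 0.16) and Snhg12 (-0.44 ± 0.11) at the lowest adjusted p of those that fell. The MYC network list includes Myc, whose protein is known to drive ribosome biogenesis, and also antagonists of MYC. Of its 9 tested genes, 2 rose (22.2%) and 3 fell (33.3%), so its share of higher genes was near that of all genes tested. Myc, singled out after its values were seen, was at 139, 164 and 154 CPM in Sf3b1 K700E/+ and 108, 118 and 113 CPM in Sf3b1 +/+ libraries (0.43 ± 0.07), and its partner Max rose (0.44 ± 0.07). The antagonists Mxd4 (-1.94 ± 0.22, a DEG) and Mxd3 (-0.79 ± 0.13) fell, as did Mlx (-0.30 ± 0.08). The remaining 4 genes of this list were not called, namely Mxi1 (0.22 ± 0.17), Mxd1 (-0.16 ± 0.13), Mnt (0.04 ± 0.06) and Mga (-0.04 ± 0.07).

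**Figure D3:**
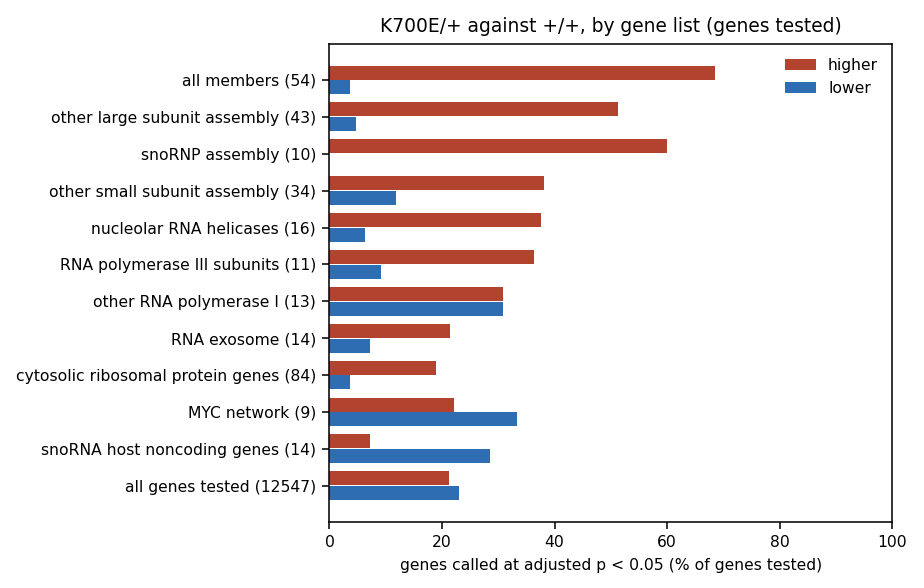
Share of tested genes called higher or lower in Sf3b1 K700E/+ cells (edgeR, adjusted p under 0.05), by gene list, with the number of genes tested in brackets. The 54 genes have 68.5% higher and 3.7% lower, against 21.3% and 23.1% of all 12547 genes tested.

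Sequence was examined for features that the choice of genes did not use. The E-box CACGTG, the motif bound by MYC with MAX, was searched in RefSeq promoters of build GRCm38.p6, from 250 bases before to 50 after each gene start, and reads the same on both strands. A promoter was found for 47 of the 54 genes, and 13 of them (27.7%) held the E-box, against 12.2% of 8365 tested genes with a promoter and 8.09% of all 27025 genes in that table. In 8 of the 13 it began after the gene start. Of the 13 genes, 7 rose and 0 fell, and their median log2 fold change was 0.29, against 0.37 for the 34 genes with a promoter and no E-box. Over all tested genes with a promoter the median was 0.04 for the 1022 with an E-box, of which 304 were higher and 214 lower, and -0.0032 for the 7343 without. These medians were not tested against each other. The motif CTCGCGAG was in 1 of 47 promoters (2.13%, Tsr1), against 2.52% of tested genes, and a GATA motif, AGATAA or its complement TTATCT, in 1 (2.13%, Nol11), against 7.97%.

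The E-boxes of the 7 genes that rose are shown with the bases around them, as their spacing from the start differed, with the E-box in capitals.
Grwd1: gggccggagtcgCACGTGtgaaaccgga
Utp4: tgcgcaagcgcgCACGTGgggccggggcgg
Wdr43: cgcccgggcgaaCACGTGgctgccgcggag
Imp4: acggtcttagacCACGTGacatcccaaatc
Pes1: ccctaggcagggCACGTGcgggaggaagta
Mybbp1a: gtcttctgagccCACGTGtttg
Nop2: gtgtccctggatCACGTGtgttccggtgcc
Counted from the gene start, they began at base 35 of Grwd1, 16 of Utp4, 18 of Wdr43, 3 of Pes1 and 41 of Mybbp1a, and 121 bases before the start of Imp4 and 60 before that of Nop2. Their positions on GRCm38.p6 are chr7:45830740-45830767 (minus strand) for Grwd1, chr8:106893643-106893672 for Utp4, chr17:71616220-71616249 for Wdr43 and chr1:34439696-34439725 for Imp4. Those of Pes1, Mybbp1a and Nop2 are chr11:3963965-3963994, chr11:72441355-72441376 and chr6:125131811-125131840, all on the plus strand as are Utp4, Wdr43 and Imp4.

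Several of the genes are hosts of snoRNAs. In GENCODE M21 (GRCm38), 7 of the 54 (13.0%) held a snoRNA gene on their own strand, against 1.89% of 11912 tested genes found there by symbol. Nop56 held 5, Nop58 4, Ncl, Gnl3 and Wdr43 3 each, Tsr1 2 and Dkc1 1. Of these 7, all but Tsr1 rose, with log2 fold changes from 0.34 for Ncl to 0.58 for Nop56. Of the other 218 tested hosts 62 were higher (28.4%) and 34 lower (15.6%).

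Splicing of the same genes was read from the deposited events, each with a longer and a shorter path, and PSI is the longer path's share of the reads, with the reads of each path divided by its length. Of 60 events in 28 of the 54 genes, 57 events in 26 genes reached the minimum of 10 reads, both paths summed, in each library. A DSE (differential splicing event, adjusted p under 0.05 and an absolute PSI difference over 0.10) was found for 3 of the 57 (5.26%), near the background of 6.31% of all 17652 events tested, so the share is no result about these genes. The 3 events lay in Nop56, Gnl3 and Nop58, which all rose in RNA level. The count was 6 without Sf3b1 K700E/+ replicate 2, 4 without Sf3b1 +/+ replicate 2, 2 without Sf3b1 +/+ replicate 1 and 3 without any other library. A further 5 events passed the test with smaller differences.

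In Nop56 a retained segment of 161 bases (chr2:130119194-130119433 on GRCm39 with its flanks, plus strand) was less retained in Sf3b1 K700E/+ cells. PSI was 0.284, 0.288 and 0.280 in Sf3b1 K700E/+ replicates 1, 2 and 3 and 0.457, 0.421 and 0.460 in the Sf3b1 +/+ replicates, from 703 to 1890 reads per library. The difference was -0.16 (adjusted p = 3.4e-05 by edgeR, 0.064 by limma on logit PSI), and the deposited PSI averaged 0.240 and 0.383. The shorter path had 858, 737 and 608 reads in Sf3b1 K700E/+ and 313, 219 and 213 reads in Sf3b1 +/+ libraries. The longer path had 1032, 907 and 718 against 801, 484 and 552. These reads are not scaled for depth or for the rise of Nop56, so alone they do not show which path changed. The whole gene had 22190, 19622 and 17732 against 12482, 11482 and 11114 reads. In GENCODE M21 a 161-base intron of Nop56 is the downstream part of a 343-base intron with the same acceptor, and the snoRNA gene Gm23187 lies in the upstream part. Retention of the whole 343 bases did not pass the test (PSI difference 0.01, adjusted p = 0.81), nor did the choice between the 2 donors (0.07, adjusted p = 0.081).

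The segment is shown because it is the DSE with the most reads, with 15 bases on each side and the GT and AG at its ends in capitals (GRCm38, chr2:130277300-130277490, plus strand).
Nop56: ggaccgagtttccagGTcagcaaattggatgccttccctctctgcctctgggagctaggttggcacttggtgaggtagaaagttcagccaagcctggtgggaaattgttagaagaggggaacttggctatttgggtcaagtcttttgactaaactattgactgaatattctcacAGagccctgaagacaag

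In Nop58 the other retained segment, of 839 bases (chr1:59742344-59743260 on GRCm39, plus strand), had PSI of 0.869, 0.825 and 0.789 in Sf3b1 K700E/+ and 0.973, 0.964 and 0.968 in Sf3b1 +/+ libraries. The difference was -0.14 (adjusted p = 0.013 by edgeR) and rests on few reads of the spliced path, 8, 9 and 7 in Sf3b1 K700E/+ and 1 in each Sf3b1 +/+ library. It was not called without Sf3b1 +/+ replicate 1 (adjusted p = 0.067). The deposited PSI averaged 0.797 in Sf3b1 K700E/+ and 0.963 in Sf3b1 +/+ libraries.

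Gnl3 used an acceptor that is not annotated more often in Sf3b1 K700E/+ cells. At chr14:30739783-30740926 (GRCm39, minus strand) the longer path ended its intron 25 bases upstream of the annotated acceptor, with 225, 170 and 178 reads in Sf3b1 K700E/+ and 37, 23 and 29 reads in Sf3b1 +/+ libraries. Its PSI was 0.130, 0.109 and 0.127 against 0.0294, 0.0193 and 0.0283, a difference of 0.096 (adjusted p = 3.2e-10 by edgeR), just under the threshold of a DSE. The DSE of Gnl3 shares this longer path and sets it against a rarer one with no annotated site, at PSI of 0.925, 0.949 and 0.912 against 0.655, 0.647 and 0.817 (difference 0.22, adjusted p = 0.00045), from 33 to 44 reads in the Sf3b1 +/+ libraries. The deposited PSI of this DSE averaged 0.877 in Sf3b1 K700E/+ and 0.503 in Sf3b1 +/+ libraries. Both events of Gnl3 report the same reads of the upstream acceptor.

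Alternative acceptors also differed in Nolc1 and Noc2l, which with that of Gnl3 were singled out after their values were seen. In Nolc1 (chr19:46067158-46067352 on GRCm39, plus strand) an annotated acceptor 15 bases upstream of the next had PSI of 0.173, 0.158 and 0.171 in Sf3b1 K700E/+ and 0.0717, 0.0733 and 0.0691 in Sf3b1 +/+ libraries (difference 0.096, adjusted p = 0.0057 by edgeR). The upstream acceptor had 49, 37 and 35 against 13, 9 and 8 reads. Its PSI leaves out an acceptor 3 bases past the next, so it is not the share of all reads at this junction. That acceptor had 1137, 879 and 827 against 692, 498 and 475 reads in another event. In Noc2l (chr4:156325131-156325918 on GRCm39, plus strand) the main acceptor was used more, at PSI of 0.967, 0.953 and 0.955 against 0.851, 0.895 and 0.855 (difference 0.091, adjusted p = 6.8e-06), and an unannotated acceptor 110 bases inside the exon less, with 18, 23 and 21 against 50, 36 and 41 reads. The genotypes did not overlap in any of these 3 events. By the deposited PSI the differences were 0.0600 in Gnl3, 0.110 in Nolc1 and 0.117 in Noc2l. The differences passed 0.10 without Sf3b1 K700E/+ replicate 2 for Gnl3 (0.10) and Nolc1 (0.10), and without Sf3b1 +/+ replicate 2 for Noc2l (0.11).

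The acceptor regions are shown with the AG of each in capitals, from GENCODE M21 transcripts on GRCm38. In Gnl3 (chr14:31017852-31017941, minus strand) and Nolc1 (chr19:46078808-46078887) the upstream AG is the one used more in Sf3b1 K700E/+ cells, and in Nolc1 an AG 3 bases further, which most reads of another event used, is in lower case. The sequence of Noc2l (chr4:156241313-156241437) begins at the first exon base after the main acceptor, and its AG is that of the inner acceptor, used less.
Gnl3: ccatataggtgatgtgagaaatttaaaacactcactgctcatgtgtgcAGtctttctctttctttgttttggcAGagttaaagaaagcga
Nolc1: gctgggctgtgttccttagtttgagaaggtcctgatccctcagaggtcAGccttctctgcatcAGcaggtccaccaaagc
Noc2l: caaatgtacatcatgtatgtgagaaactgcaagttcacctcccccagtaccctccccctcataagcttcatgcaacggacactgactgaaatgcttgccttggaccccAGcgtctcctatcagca

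The last 2 events that passed the test were small. In Gnl3 the PSI of an alternative donor of 14 bases rose by 0.04 (adjusted p = 0.012 by edgeR) and in Dkc1 that of a skipped exon of 82 bases by 0.05 (adjusted p = 0.037). The remaining 49 tested events, 26 of them intron retention, did not pass.

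**Figure D4:**
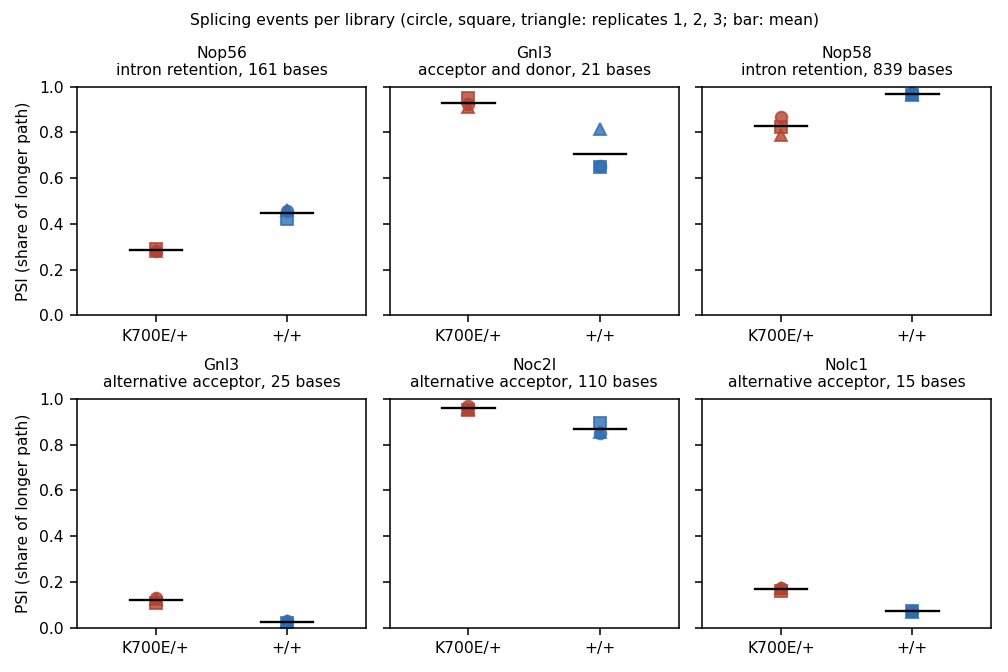
PSI (share of the longer path) in each library for 6 events of Nop56, Gnl3, Nop58, Noc2l and Nolc1; circles, squares and triangles are replicates 1, 2 and 3 and the bars are genotype means (n = 3). The upper row holds the 3 DSEs, with means of 0.284 and 0.446 in Nop56, 0.929 and 0.706 in Gnl3 and 0.828 and 0.968 in Nop58, and the lower row the 3 alternative acceptors, in which no library of one genotype enters the range of the other.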

How the data were processed

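The authors sequenced stranded poly(A) libraries, aligned the reads with STAR 2.7.9 on GRCm39 and deposited raw counts per gene. The annotation release, and whether counting used strand, are not given in the sources used here, and 23 of the 54 genes are overlapped by another gene on the opposite strand (in GENCODE M21), so reads of such pairs may not be told apart. Their event table, from KisSplice and KisSplice2refgenome, holds packed read numbers of each path and a deposited PSI, a fraction, beside the length in bases of the part that differs, deposited as a score. Libraries from before estradiol were not analysed here.

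The gene test ran in edgeR 4.0.16 under R 4.3.3 (filterByExpr, TMM, quasi-likelihood F test, Benjamini-Hochberg over 12547 genes). SE is the absolute log2 fold change over the root of F. Of 19323 events, 97 without path lengths, 449 not placed as a splicing event and 6 second copies were left out. Reads of both read files of a library were summed, and edgeR tested the interaction of path and genotype, with 1 term per library. The recomputed PSI correlated with the deposited PSI at r = 0.983 over 108495 values, but 13.2% of values lay within 0.01, so the authors' formula differs and both are given. KissDE was not run. Both steps were tested on simulated data.

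The 54 genes and all lists were chosen with earlier results of these data known. Among the 54, values in every library are given for the 2 genes of lowest adjusted p of each role, those called lower, any DEG, the 2 with the most and the least reads and those with a DSE, and for Gar1 besides. From each other list, up to 3 genes of lowest adjusted p are given by fold change, with Snu13 besides, and from the MYC network all 9 tested. Library pairs within a genotype differed beyond sampling (chi-square per degree of freedom 8.09 to 35.8). Deviations from the genotype mean correlated between libraries of the same number (0.627, 0.484 and 0.480 over the 8771 genes averaging 5 CPM or more), and the numbers were taken to pair them, as a block in an alternative. Alternatives changed normalization, filter, test (DESeq2 1.42.0, limma 3.58.1 on logit PSI), coverage minimum, PSI threshold and libraries.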

Additional observations from a re-analysis of the deposited data

How the results depend on the processing

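The number of the 54 genes that rose was 37, and 38 with RLE scaling, 37 with upper quartile scaling, 32 with total counts only, 37 with TMM computed without the 54 genes, 39 with DESeq2, 40 without a filter on low counts and 37 with the filter of the study. Over all settings, the share of all genes tested that were higher was lowest, 12.6%, without a filter on low counts. It was highest, 28.5%, with the replicate block and without replicate 1 of both genotypes. The median log2 fold change of the 54 lay between 0.28 and 0.42 in the settings that left out 1 library. Genes that fell numbered 2, but 3 with upper quartile scaling or total counts only, 1 without a filter on low counts, and 1 to 2 when single libraries were left out. Total counts only moved the median of all genes to -0.05. With the replicate number as a block, taken as a pairing, 43 of the 54 rose and 3 fell, against 27.7% and 29.2% of all genes tested. The block changed no other call than those given beside the genes. It gave 3 DSEs, and 69 higher and 18 lower of the 130 other genes of the pathway. Leaving out replicate 1 of both genotypes, chosen after seeing the data, gave 45 and 3, and 47 and 3 with the block. The log2 fold change of Utp18 changed sign without Sf3b1 +/+ replicate 1 (0.0494, and -0.0915 to 0.0494 over the settings that left out 1 library) and without replicate 1 of both genotypes (0.0191, and 0.0190 with the block). The log2 fold change of Ltv1 changed sign without Sf3b1 +/+ replicate 1 (0.0063, range -0.104 to 0.0063). These had no call. DSEs in the 54 genes numbered 3 with a coverage minimum of 5 or 20 and 3 by limma, of which 2 were the same, 1 with a PSI difference over 0.20, and 2 to 6 when single libraries were left out. The cause of these changes was not tested. Depth limits the Nop58 event, with 1 read of a path in a library.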
